A study of Fraxinus excelsior with 182 samples.

Results

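A total of 602 gene models of European ash (*Fraxinus excelsior*) were well expressed in leaves of most trees but silent in a few of them. They were selected on their level, as models with a median of 5 TPM or more over 182 trees and a value under 0.1 TPM in 3 to 17 trees. TPM, the unit Salmon reports, is a length-normalized share of the transcripts in a library, and "silent" is used here only for a value under 0.1 TPM. The members were 1.41% of the 42665 models in the table and 3.31% of the 18162 models with a median of 5 TPM or more. The data were 1 leaf RNA library from each of 182 Danish ash accessions, sequenced as Illumina reads for an earlier study and requantified on the coding sequences of a new long-read assembly. The labels give tissue (leaves) and tree only, so all trees formed 1 group with no treatment, age or damage class, and each tree had a single library. Leaf identity was not checked against markers because the identifiers carry no gene names. TPM keeps no read number, so the depth behind each value is unknown.

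The same trees had been scored for damage by ash dieback, a fungal disease, in the earlier study, and those scores were not used here. Common ash is an outcrossing forest tree, and its accessions differ in the sequence and in the leaf transcript level of many genes. Salmon, the tool used for these values, assigns reads to coding sequences and divides a read that matches several of them, so levels of near-identical gene copies are uncertain. Genome positions were not used here, and close identifier numbers (Fe_g30077 and Fe_g30078) stand in for close positions, while distant numbers say nothing of linkage. Among the members are MADS-box genes, transcription factors known for timing flowering, dormancy and organ shedding in plants.

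The limits of the rule cut through a continuous range. Among the 18162 well expressed models, 16706 were silent in no tree, 631 in 1 or 2 trees and 223 in 18 trees or more. The 2 members silent in 3 trees with the highest medians were Fe_g4550 (104.4 TPM) and Fe_g31741 (88.3 TPM), and just outside this limit Fe_g35402.1 (298.0 TPM) and Fe_g42910 (157.3 TPM) were silent in 2 trees. At the other end, Fe_g9083 (85.5 TPM) and Fe_g44395 (69.9 TPM) were silent in 17 trees, and just outside it Fe_g31662.1 (101.3 TPM) and Fe_g5322 (48.4 TPM) were silent in 18. The lowest medians inside the rule were 5.01 TPM for Fe_g4200 and 5.04 TPM for Fe_g8871. Those of Fe_g24893 and Fe_g32779, at 4.999 and 4.99 TPM, fell just under it. A further 2361 models were silent in 3 to 17 trees with a median under 5 TPM.

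Silence was mostly a value of exactly 0. The members held 4299 silent states (1 member in 1 tree), of which 3930 (91.4%) were listed at 0, and 478 members were at 0 in every silent tree. The number of silent trees was low for most members, with 21.1% of members silent in 3 trees, 15.8% in 4, 10.5% in 5 and 3.82% in 17, and a median of 6. Member medians ran between 5.01 and 162.2 TPM, with quartiles of 6.96, 9.73 and 17.3 TPM. There were 37 members at 50 TPM or more and 313 under 10 TPM.

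The 4 members with the highest medians were listed at 0 in 4 to 10 trees each. Fe_g9249 was at 0 in Ash5, Ash26, Ash29, Ash52, Ash71, Ash80 and Ash136, against 0.458 (lowest), 164.8 (median) and 247.9 TPM (highest) in the other trees. Only 1 of those other trees was under 1 TPM. Fe_g39335 was at 0 in Ash27, Ash140, Ash149 and Ash200, against 23.9, 149.2 and 270.8 TPM in the other trees, so the silent and other trees were far from meeting. Fe_g24268 was at 0 in 8 trees (Ash21, Ash22, Ash45, Ash69, Ash113, Ash114, Ash116 and Ash159), against 0.222, 134.2 and 495.6 TPM in the other trees. Here the silent trees met a low tail, since 7 of the other trees were under 1 TPM. Fe_g16156 was at 0 in 10 trees, against 0.746, 125.2 and 1116 TPM in the other trees.

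An empty range between silent and other trees, as in Fe_g39335, was the less common case. Of the 602 members, 24.1% had no other tree under 1 TPM, and 18.4% had 10 or more such trees. In 24.3% of members the lowest other tree was at 10% or more of the median of the other trees. Measured in TPM, the gaps were widest in Fe_g4550 and Fe_g39335, which are named after their values were seen. Measured in percent of that median, the gap was widest in Fe_g29435 (44.5%), against 25.7% in Fe_g4550. Fe_g4550 was at 0 in Ash48, Ash84 and Ash195, against 26.9, 104.7 and 237 TPM in the other trees. Fe_g43837 was at 0 in 15 trees, none of them among the trees with an unusual transcriptome described next, against 11.4, 109.3 and 233 TPM in the other trees. The coefficient of variation over expressing trees had a median of 60.9% (23.3 to 243%) for members, against 29.04% for the 16706 models silent in no tree, a description since the rule used these values.

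**Figure D1:**
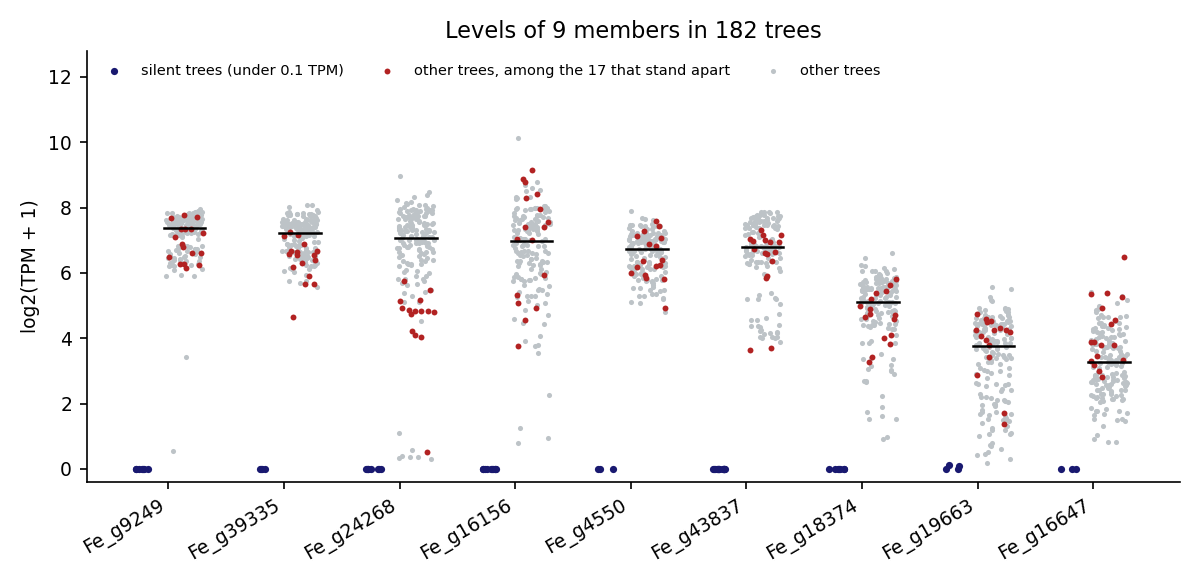
Level of 9 members in 182 trees on a log2(TPM + 1) axis, with silent trees (under 0.1 TPM) to the left of the other trees, and a line at the median of the other trees. Fe_g39335 and Fe_g4550 had no other tree under 23.9 and 26.9 TPM, whereas Fe_g24268 and Fe_g19663 had other trees close to the silent ones.

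The silent states were spread over nearly all trees but heavily unequal between them. A tree was silent for 0 to 24.6% of the 602 members, with a median of 3.07%. The 4 trees with the most were Ash94 (24.6%), Ash144 (23.9%), Ash18 (23.8%) and Ash24 (19.9%). Ash51 was silent for none, and every other tree for at least 1. These 4 belonged to 17 trees (9.34%) whose leaf transcriptome stood apart, taken as a median Pearson's r under 0.8 with the other trees on log2(TPM + 1) over well expressed non-members. This limit was chosen after the values were seen, and the nearest trees on its sides were at 0.794 and 0.803. The 17 trees that stood apart were silent for 26 members or more (median 61), and the other trees for 0 to 50 (median 18). Together the 17 trees held 1270 silent states, or 29.5% of all. Ash83, with 50 silent members, led the other trees and had the fewest other genes above 0 TPM (30692).

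The 17 trees resembled each other in the rest of their transcriptome, with a median r of 0.904 between them, against 0.908 between pairs of the other trees. Their median r with all trees was 0.675 to 0.794, against 0.803 to 0.928 for the other trees. Their 10 most abundant genes took 6.75 to 19.99% of the TPM (median 11.7%), against 4.25 to 12.6% (median 5.81%) in the other trees. They listed 31841 to 33522 non-members above 0 TPM, within the 30692 to 34297 of the other trees. The labels give no batch, site or date, so the part of leaf state, handling or sequencing in these differences was not tested.

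**Figure D2:**
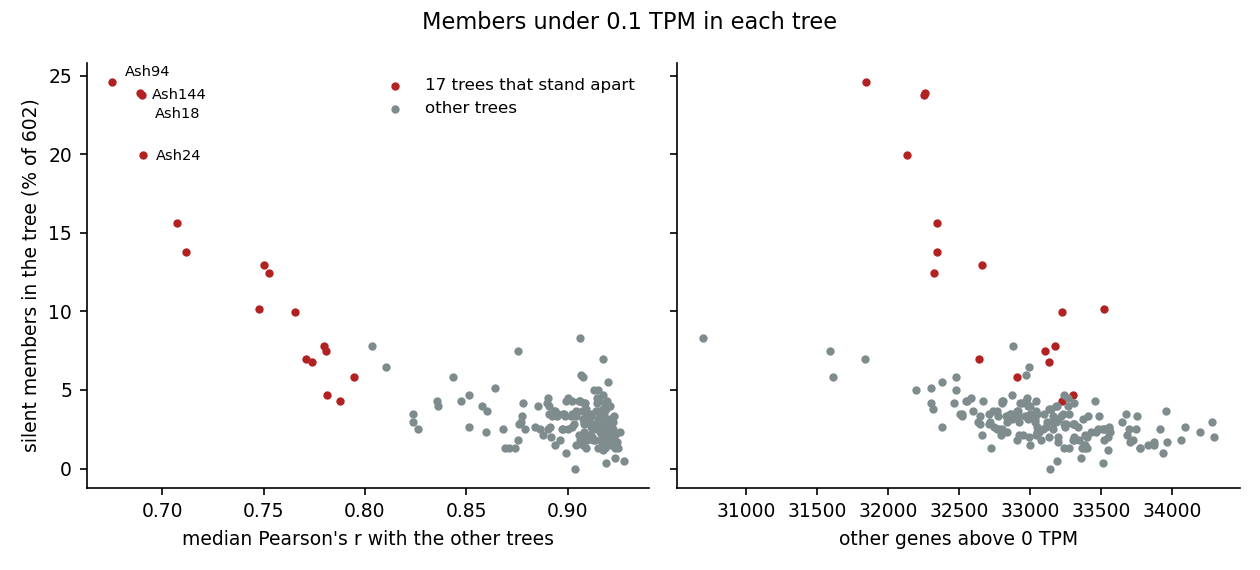
Silent members of each of 182 trees, in percent of the 602 members, against the tree's median Pearson's r with the other trees (left) and against its number of non-member genes above 0 TPM (right). The 17 trees that stood apart are in red and reach 24.6% of the members, against at most 8.31% in the other trees.

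Across the 182 trees, the number of silent members fell with likeness to the other trees (Pearson's r = -0.82, Spearman's rho = -0.45), and r was -0.79 without the 2 trees farthest from the median likeness. Without the 17 trees r was -0.31 and rho -0.27. Trees with fewer other genes above 0 TPM held more silent members (r = -0.50, rho = -0.57), also without the 17 trees (r = -0.62, rho = -0.56). The number of reads per tree cannot be read from TPM, and its part in this relation was not tested. The share of the 10 most abundant genes rose with silent members over all trees (r = 0.69, rho = 0.33) and less without the 17 trees (r = 0.16, rho = 0.13). For the number in the tree's name, r was -0.0045 and rho 0.097. These coefficients are descriptions with no p-value, because the members were chosen with the data known. The points share the fixed TPM sum of each library, and relatedness among trees was not modelled.

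The trees split the members by where they were silent. A set of 17.1% of members was silent in no tree other than the 17, and 37.2% (224 members) were silent in none of the 17. These shares, like the 29.5% of silent states above, were not counted over all 2963 models silent in 3 to 17 trees. They are therefore not read as particular to the members. Among the members silent in trees apart only, 8 (7.77%) had no other tree under 1 TPM and the median was 8 such trees. Among the 224 members silent in no tree apart, 68 (30.4%) had none and the median was 2. Fe_g31741, silent in trees apart only, was at 0 in Ash94, Ash144 and Ash168, with 0, 5.86 and 23.1 TPM (lowest, median and highest) in the 17 trees and 6.57, 92.6 and 388 TPM in the other trees. Fe_g26031 was at 0.0148, 0.311 and 0.716 TPM in the 17 trees and 0.240, 7.74 and 15.1 TPM in the other trees.

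**Figure D3:**
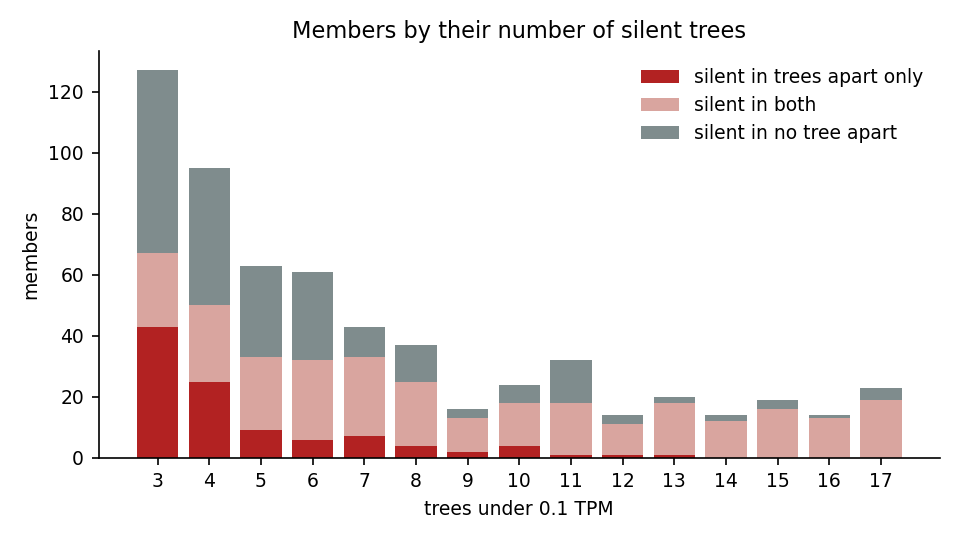
Number of members by the number of trees in which they were silent, divided by whether the silent trees were among the 17 that stood apart. Of 602 members, 17.1% were silent in trees apart only and 37.2% in none of them.

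Trees also shared their silent members unequally. Ash94 and Ash144 had 92 silent members in common, 46% of those silent in either. Ash18 shared 87 with Ash144 and 87 with Ash94. Over the pairs of trees that both stood apart, the share in common was 4.76% or more (median 14.6%), against 0 to 19.4% (median 2.04%) over the 13530 pairs in which neither did. The most in common among those other trees was 10 silent members, in Ash54 and Ash83. Over all 16471 pairs of trees, the share in common was weakly related to the r of the rest of the transcriptome (rho = 0.090), with rho = 0.034 without the 17 trees.

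Whether 2 members were silent in the same trees was tested for each pair, with an exact one-sided permutation test over trees of the number of shared silent trees. This test takes all trees as exchangeable, but the number of silent members differed widely between trees. A low p can therefore come from that inequality alone, and sharing beyond it was not tested. The limit is strongest for pairs silent mainly in the 17 trees that stood apart. p-values were adjusted over the 4388203 pairs of all 2963 models silent in 3 to 17 trees, whatever their median, of which 4.31% were called at an adjusted p of 0.05 or less. Of the 180901 pairs of members, 7727 (4.27%) were called, close to that background. Adjusted over the pairs of members only, 7532 were called (4.16%). Few pairs were called without the 17 trees. With the rule applied again to the other trees, 468 models met it, and 6 of their 109278 pairs were called (0.00549%), against 0.00867% of the pairs of all models silent in 3 to 17 of these trees. Likewise 38 pairs of members had identical silent trees, and in 37 of them every silent tree was among the 17. Of these 38 pairs, 32 lay outside the runs of called neighbours. Named as examples were Fe_g3521 with Fe_g30017, and Fe_g5989 with Fe_g33678 and with Fe_g9242, which were tied with other pairs. All 5 genes were silent in 4 of the 17 trees and in no other tree. The most shared trees outside such runs, a pair named after its values were seen, were those of Fe_g28424.1 and Fe_g41671, each silent in 17 trees. They shared 16, of which 14 were among the 17 that stood apart (adjusted p = 5.1e-15, exact permutation test). With most shared trees among the 17, this p is not read as sharing beyond the inequality between trees.

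Silence was shared between some neighbouring identifiers and not between others. Among the 37 pairs of members whose identifier numbers differed by 1 to 3, 13 (35.1%) were called, against 4.27% of all pairs of members, while 18 pairs shared no silent tree. At a step of 1 the count was 11 of 17 pairs, at a step of 2 it was 2 of 9 and at a step of 3 it was 0 of 11. Shares over all models were not taken by step, so these counts are not read as a trait of the members. Of the 766 neighbouring pairs of all models silent in 3 to 17 trees, 19.2% were called. Without the 17 trees the rule was applied again, and 427 of the 468 models that met it were members. Of the neighbouring pairs of these 468 models, 3 of 33 (9.09%) were called. Among all models silent in 3 to 17 of the other trees, 27 of 573 neighbouring pairs (4.71%) were called. These pairs are thus not the same set as the 37 above. Some pairs that shared no silent tree among the 17, such as Fe_g16746 with Fe_g16747, were called only over all trees. The adjusted p of a pair also depends on the p of the other pairs. The lower number of calls is therefore not read as dependence on the 17 trees. No called run was longer than 2 members.

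The 3 neighbouring pairs that were called without the 17 trees, named after their values were seen, were Fe_g30077 with Fe_g30078, Fe_g42351 with Fe_g42352, and Fe_g34964 with Fe_g34965. Fe_g30077 and Fe_g30078 were each silent in 12 trees and shared 11 of them (Ash17, Ash26, Ash31, Ash35, Ash38, Ash67, Ash79, Ash99, Ash115, Ash137 and Ash161), with an adjusted p of 2.4e-11 over all trees and 3.5e-09 without the 17 trees by the exact permutation test. Fe_g30078 was at 0 in all of its silent trees, against 0.215, 10.996 and 167.2 TPM in the other trees. Fe_g30077 was at 0 in 6 of its 12 silent trees and at up to 0.0741 TPM in the rest. A further 17 trees held Fe_g30077 under 1 TPM, so its silent trees met a low tail. In the trees that expressed both, their levels rose together (rho = 0.88, a description). Fe_g42351 and Fe_g42352 were silent in 10 and 8 trees and shared 8 (adjusted p = 5.8e-09 over all trees and 1.4e-05 without the 17 trees, exact permutation test). Fe_g42351 was at 0 in its 10 trees, against 1.63, 8.96 and 16.6 TPM in the other trees. Fe_g42352 was at 0 in 7 of its 8 silent trees. Fe_g34964 and Fe_g34965 were silent in the same 4 trees, Ash19, Ash72, Ash121 and Ash210 (adjusted p = 8.9e-06 over all trees and 0.0022 without the 17 trees, exact permutation test). Fe_g34964 was at 0 in all 4, against 0.645, 18.2 and 107.3 TPM in the other trees. Fe_g34965 was at 0 in 1 of the 4 and at up to 0.0896 TPM in the rest, just under the limit of 0.1 TPM. In the other trees Fe_g34965 started at 0.372 TPM, with 6 trees under 1 TPM.

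Of the 4 pairs named by the rule for runs, Fe_g12709 and Fe_g12710 shared silence mainly within the 17 trees. They were silent in 13 and 15 trees and shared 12, of which 11 were among the 17 (adjusted p = 5.2e-11, exact permutation test). Here too, the p is not read as sharing beyond the unequal number of silent members between trees. Fe_g12709 was at 0, 0 and 2.10 TPM (lowest, median and highest) in the 17 trees, against 0, 72.04 and 171.3 TPM in the other trees, and the sets overlapped at the low end. Fe_g12710 was at 0, 0 and 0.388 TPM in the 17 trees, against 0, 8.12 and 20.9 TPM in the other trees. Fe_g21352 and Fe_g21353 shared 3 of 6 and 6 silent trees, all among the 17 (Ash24, Ash94 and Ash144). Fe_g16746 and Fe_g16747 shared 3 of 7 and 5 silent trees (Ash59, Ash120 and Ash140), none among the 17, and their levels in the trees that expressed both were nearly unrelated (rho = 0.12). Fe_g16746 was at 0 in none of its 7 silent trees, with values up to 0.0932 TPM, just under the limit. Fe_g23961 and Fe_g23962 shared 7 of 16 and 12 silent trees. The last 2 pairs were no longer called without the 17 trees (adjusted p of 0.16 and 0.16, exact permutation test). Fe_g16746 and Fe_g16747 still shared 3 trees there, with an unadjusted p of 5.4e-05, against 0.00034 over all trees (exact permutation test). The adjusted p of a pair also depends on the p of the other pairs. A lost call is therefore not read as dependence on the 17 trees.

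Shared silence was not limited to neighbours. The other 3 of the 6 pairs called without the 17 trees had identifiers further apart. Fe_g1053 was silent in 12 of these trees and Fe_g21574.1 in 14, and all 12 were shared (adjusted p = 2.6e-10, exact permutation test). Fe_g16156, the member with the fourth highest median, and Fe_g30765 were each silent in 10 of them and shared 9 (Ash54, Ash57, Ash66, Ash67, Ash116, Ash119, Ash150, Ash215 and Ash216, adjusted p = 2.7e-07, exact permutation test). Fe_g16746 and Fe_g16751, whose numbers differ by 5, were silent in 5 and 4 of these trees and shared 4 (adjusted p = 0.0065, exact permutation test).

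**Figure D4:**
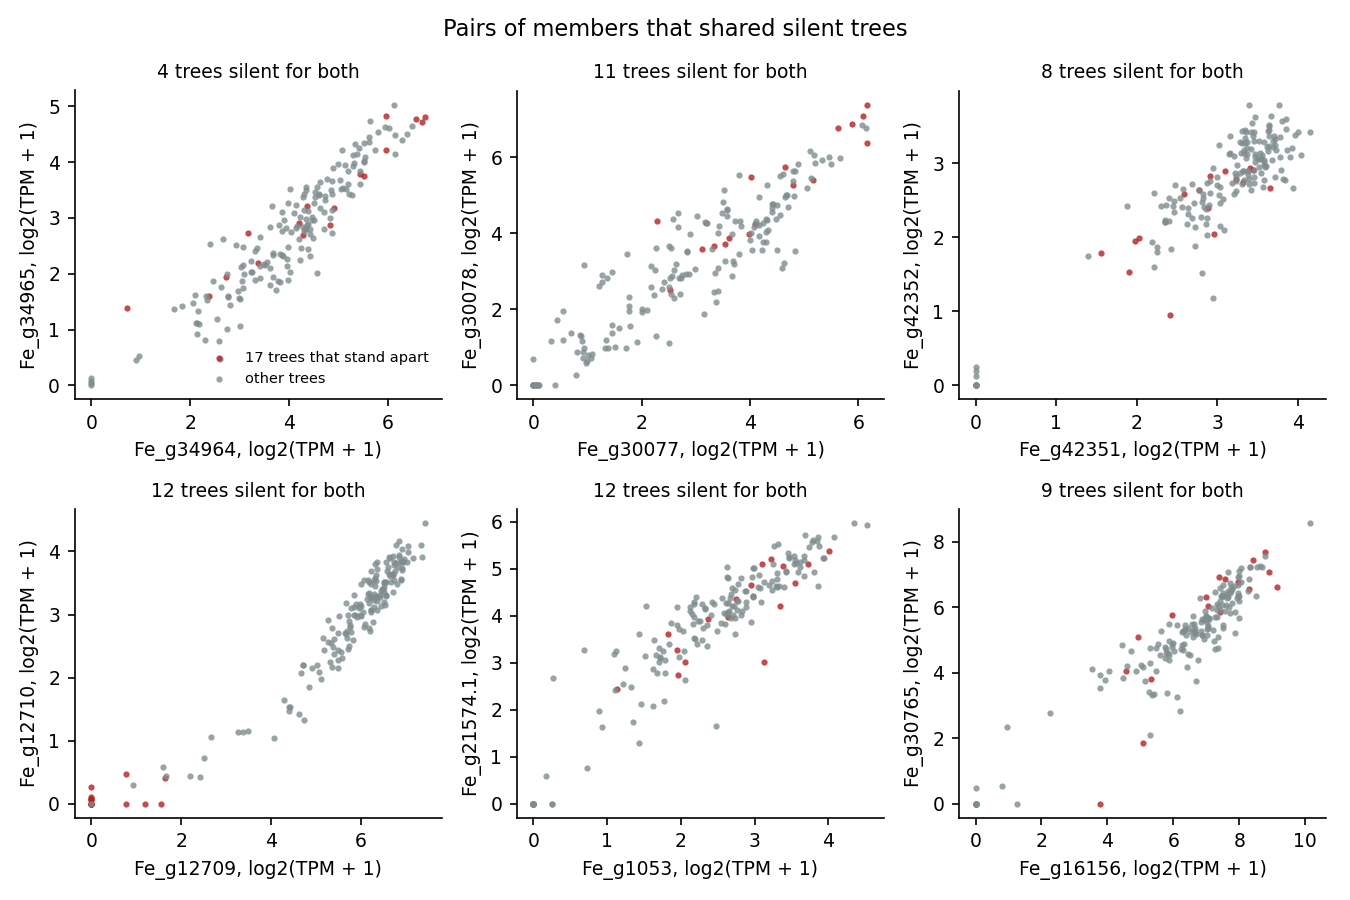
Levels of 6 pairs of members in 182 trees, each axis on the log2(TPM + 1) scale, with the 17 trees that stood apart in red. Trees silent for both members lie at the lower left corner, and number 11 for Fe_g30077 and Fe_g30078, all outside the 17, and 12 for Fe_g12709 and Fe_g12710, of which 11 were among the 17.

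Neighbours silent in more than 17 trees or in fewer than 3 are not members, and some of them shared silent trees with a member. Counting all well expressed neighbours, members or not, of 541 members with a well expressed neighbour up to 3 numbers away, 34 (6.28%) had one that was silent in 50% or more of the member's silent trees. The same was so for 2.83% of the 2690 models silent in 3 to 17 trees, whatever their median and members included, that had such a neighbour. Fe_g29449 was silent in 13 trees and its neighbour Fe_g29448 in 28, including all 13. Fe_g9288 was silent in 8 trees and its neighbour Fe_g9287 in 51, including all 8. The silent trees of the member were thus nested in those of the neighbour. Fe_g44709 shared 8 of its 13 silent trees with Fe_g44707 and 7 with Fe_g44710, which were silent in 43 and 19 trees. These genes were named after their values were seen.

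In the expressing trees, most members formed 1 group of levels by the shape of their density, but not by a mixture criterion. A member was taken to form 2 groups where the density of log2(TPM + 1) over its trees at 0.1 TPM or more dropped between 2 peaks to less than 0.5 of the smaller one, with 18 or more trees in either group. This was so for 11 members (1.83%), against 0.286% of all 18162 well expressed models and 19 of the 16706 silent in no tree (0.114%). With a shallower valley, under 0.8 of the lower peak, the count was 35 members (5.81%), against 1.70% of all. By a broader criterion, the lower BIC of a 2-component over a 1-component Gaussian mixture, 392 members (65.1%) had 2 components, against 48.5% of all, so whether most members formed 1 group or 2 depends on how a group is defined. The members were picked for a low end to their range, so this difference is a description.

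In the 4 members with the deepest valleys, the lower group lay near the silent trees. Fe_g17336 was at 0 in 17 trees, while 61 trees formed a lower group with its peak at 0.566 TPM and the rest of the expressing trees an upper group with its peak at 30.3 TPM. Fe_g18978.1 was silent in 16 trees, with 18 trees around 0.214 TPM and the rest around 10.6 TPM. Its lower group is thus not separate from the limit of 0.1 TPM. Fe_g44089 was at 0 in Ash45, Ash66, Ash131 and Ash136, with 36 trees around 2.42 TPM and the rest around 128.6 TPM. Fe_g33767 was at 0 in Ash76, Ash137 and Ash140, with 28 trees around 1.67 TPM and the rest around 92.7 TPM. The peaks were 49.7 to 55.4 times apart in these 4 members.

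A smaller step between the groups was rarely found by the shape of the density. How often this rule would miss such a step was not tested. Among the 35 members with a valley under 0.8, 3 (0.498% of members) had peaks 1.5 to 2.5 times apart, against 0.121% of all well expressed models. As a share of the models with such a valley, this was 8.57% in members and 7.12% in all. The smaller step is therefore not read as particular to the members. These 3 members are named after their values were seen. Fe_g29435 was at 0 in 17 trees, with 85 trees around a peak of 9.91 TPM and 80 around a peak of 20.1 TPM, a ratio of 2.03. No other tree lay under 5.44 TPM, so its levels fell into 3 classes with an empty range above the silent trees. Fe_g8966 (silent in 3 trees) had 67 trees around 13.9 TPM and the rest around 28.5 TPM. Fe_g23514.2 (silent in 5) had 35 trees around 111.6 TPM and the rest around 52.1 TPM.

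The neighbours Fe_g42006.1 and Fe_g42007, also named after the fact, shared their groups but not their silence. Fe_g42006.1 had 60 trees around 512 TPM and the rest around 5.07 TPM, and Fe_g42007 had 59 trees around 571 TPM and the rest around 21.5 TPM. Of the trees that expressed both, 57 were in the upper group of both, 5 were in different groups and the rest were in the lower group of both. They were silent in 8 and 6 trees and had only Ash173 in common.

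**Figure D5:**
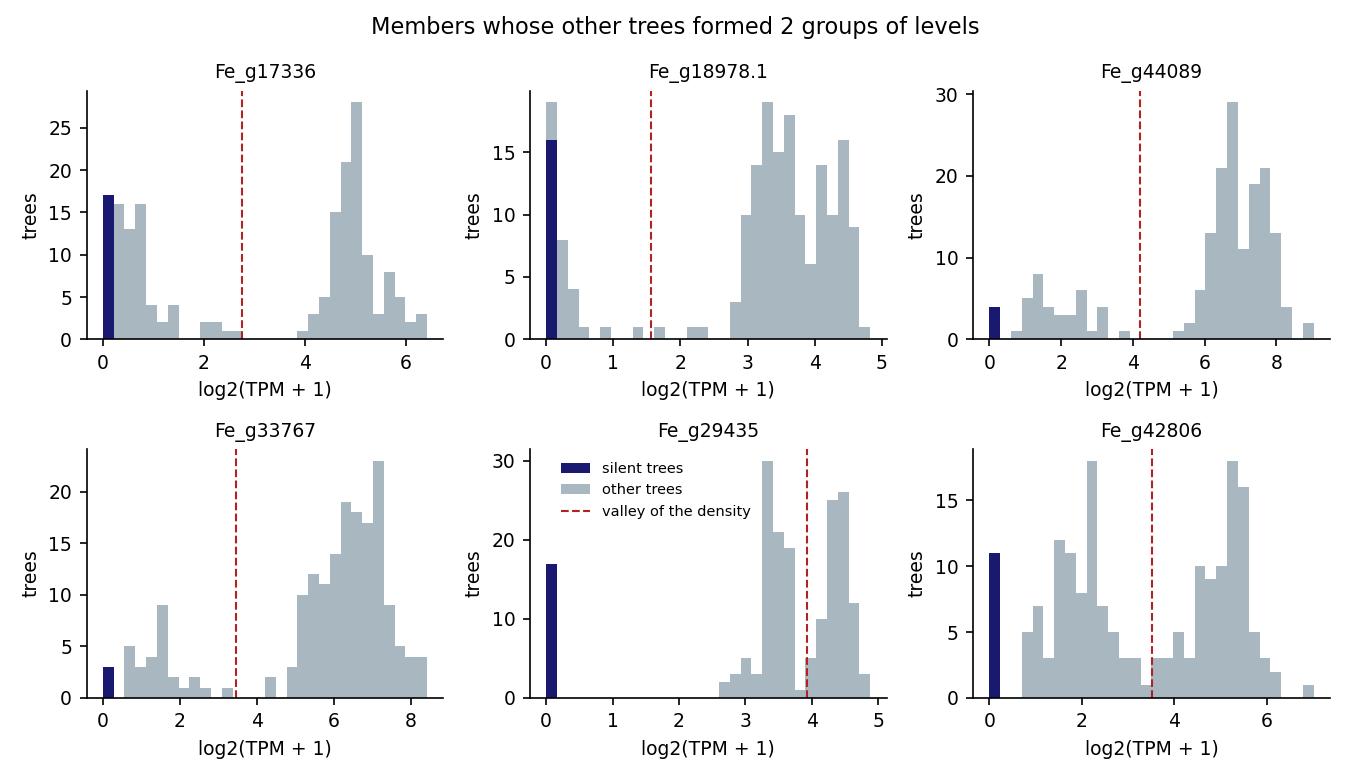
Number of trees by level on a log2(TPM + 1) axis for 6 of the 11 members with 2 groups of levels, with silent trees dark, other trees grey and the valley of the density dashed. Fe_g29435 shows 17 trees at 0 and groups around 9.91 and 20.1 TPM, whereas the lower group of Fe_g17336 lies at 0.566 TPM.

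Levels of members were also set beside those of their neighbours. Because a read that matches similar models is divided among them, models up to 3 numbers away were compared over the trees that expressed the member. An opposed neighbour (rho of -0.5 or less) was found for 43 members (7.14%), against 15.8% of all well expressed models. A parallel neighbour (rho of 0.5 or more) was found for 34.1% of members, against 41.9% of all. Without the 17 trees these shares were 5.32%, against 11.5% of all, for opposed neighbours and 29.7%, against 36.3% of all, for parallel ones. The members thus showed no excess of opposed or parallel neighbours over the table. The lowest values were those of Fe_g26031 with Fe_g26028 (rho = -0.88), Fe_g1956 with Fe_g1955 (-0.82), Fe_g23793 with Fe_g23791 (-0.78) and Fe_g17397 with Fe_g17396 (-0.78). In each pair the 17 trees lay towards the ends of the range, and read sharing itself was not tested. Fe_g23793 was at 106.6, 254.0 and 585.9 TPM (lowest, median and highest) in the 17 trees and 0, 17.9 and 380 TPM in the other trees, whereas Fe_g23791 was at 0.314, 1.09 and 1.99 TPM in the 17 trees and 1.06, 2.90 and 5.18 TPM in the other trees.

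The only gene names used here come from the study's list of models associated with ash dieback damage on these same trees. Of the models with an annotation in that list, 79 were well expressed and 3 of these were members. Among all well expressed models 3.31% were members, so the 3 are not read as an excess in the list. Listed models without an annotation were not counted. Fe_g18374, of the JOINTLESS-like MADS-box genes, known in tomato for the shedding zone of flower stalks, was at 0 in Ash8, Ash11, Ash12, Ash18, Ash35, Ash210 and Ash213. In the other trees it was at 0.872, 33.5 and 96.02 TPM. Fe_g19663, a SOC1-like MADS-box gene (SOC1 promotes flowering in *Arabidopsis*), was silent in Ash11 (0.0898 TPM), Ash210 (0.0554 TPM), Ash18 (0 TPM) and Ash213 (0 TPM). All 4 trees were also silent for Fe_g18374 (adjusted p = 0.00014, exact permutation test). Without the 17 trees they shared 3 silent trees and were not called (adjusted p = 0.12, exact permutation test). In the other trees Fe_g19663 was at 0.137, 12.7 and 46.4 TPM, with 9 trees under 1 TPM, so its silent trees continued a low tail. Fe_g16647, an iron/ascorbate-dependent oxidoreductase, was at 0 in Ash54, Ash178 and Ash193, against 0.760, 8.68 and 87.9 TPM in the other trees. Of the silent trees of these 3 genes, only Ash18 was among the 17 that stood apart. Because the list was itself made on these trees, these 3 members say nothing further of damage. Fe_g19663 and Fe_g18374 were both listed for their levels over these trees. The test of their shared silence is thus not independent of that choice.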

How the data were processed

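Leaf mRNA-Seq reads of 182 trees were trimmed with Trimmomatic and mapped by the authors with Salmon 0.8 against the coding sequences of their assembly, and the deposited TPM values were obtained through tximport. TPM are scaled by the authors to coding length and to a fixed sum per tree, so read numbers are unknown, intervals were not given, and abundant genes lower all others. Every value column was matched to a tree by its label. A value of 0 may also be an estimate that failed, and relatedness among trees was not modelled. Gene positions and sequences were not used here.

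Members and lists were chosen with earlier results of these data known. Named genes were the members with the highest medians, those in runs of neighbours with called sharing, pairs outside runs with the largest share of their silent trees in common, members with the deepest valleys, the most opposed neighbours, members annotated in the study's list, and genes at the limits of the rule. Others are said to be named after their values were seen. Sharing of silent trees was tested with an exact permutation test over trees (one-sided, Benjamini-Hochberg adjustment, called at 0.05). The test was planned with adjustment over pairs of members, and adjustment over all genes silent in 3 to 17 trees was added after the data were seen. Relations across trees were planned with permutation tests of 100000 resamples, but p-values are not given, since the counts are scores over chosen members. Densities used a Gaussian kernel with Scott's bandwidth and a pseudocount of 1. Alternatives changed the silence limit, median limit, scaling, trees, neighbour distance, pseudocount, bandwidth, valley and the measure of correlation. The steps were tested on simulated data. Python 3.11.15, numpy 2.4.6, pandas 2.3.3 and scipy 1.17.1 were used.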

Additional observations from a re-analysis of the deposited data

How the results depend on the processing

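Of 48 alternatives, 32 kept the result's direction and its side of the threshold, or a count within 1.5 times. For relations, the side was judged without adjustment for the number of tests. After adjustment, the relation with the share of the 10 most abundant genes crossed the threshold without the 17 trees. The number of members was 537 to 580 with silence as exactly 0 TPM or after median-of-ratios scaling, 942 with silence under 0.5 TPM, 289 with a median of 10 TPM or more and 2963 with no median limit. Called pairs of members numbered 83983 (18.9%) under 0.5 TPM and 2875 at exactly 0, 321 (0.273%) without the 18 trees with the fewest detected genes and 6 without the 17 trees that stood apart, a leave-out chosen after the data were seen. Called neighbouring pairs numbered 59 (56.2%) under 0.5 TPM, 5 (16.1%) without the 18 trees and 3 without the 17 trees. In each of these settings the pairs were those of the models that met the rule there. Shares over all models silent in 3 to 17 trees were not taken under 0.5 TPM, at exactly 0 or without the 18 trees. The counts of called pairs in these settings are therefore not read as results about the members. The relation between shared silent members and likeness of tree pairs dropped to rho = 0.034 without the 17 trees. Members with 2 groups of levels numbered 22 at 0.75 of the bandwidth (3.65% of members, against 0.920% of all well expressed models), 35 with a valley under 0.8 (5.81%, against 1.70% of all), 20 with at least 10 trees on each side (3.32%, against 0.523% of all) and 392 by lower BIC of a 2-component Gaussian mixture (65.1%, against 48.5% of all). Members with an opposed neighbour numbered 99 at up to 10 identifier numbers (16.4%, against 32.5% of all). The cause of these changes was not tested beyond the wider or narrower rules themselves. No paired analysis was possible because all trees formed 1 group. With depth unknown, values near 0.1 TPM cannot be told from sampling loss.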
